A study of Caenorhabditis elegans with 2 samples.

Results

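The histone genes of Caenorhabditis elegans were examined for binding of DPL-1. They were all protein-coding genes whose symbol begins with his- or hil-, together with htz-1, and numbered 81 of the 19985 protein-coding genes annotated on WBcel235. Core histones H2A, H2B, H3 and H4 form the nucleosome, and linker histones (H1) bind where DNA enters and leaves it. Most core genes of animals lie in clusters, are made in large amounts when DNA is replicated, and give transcripts that end in a stem-loop in place of a poly(A) tail. Variant genes such as those of H3.3 and H2A.Z lie alone, usually carry introns, and supply histones at any time of the cell cycle. DPL-1 is the worm DP protein, the dimer partner of E2F-type factors and a subunit of the DREAM repressor complex, which is known for holding down cell-cycle and germline genes.

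Chromatin immunoprecipitation and sequencing was done on whole young adults of mixed sex of strain YL390, in 1 group of 2 samples labelled as biological replicates 1 and 2. Per the labels the animals carried unc-119(ed3) on chromosome III and the transgene vrIs48, in which the pie-1 promoter drives DPL-1 fused to GFP and FLAG, with the dpl-1 3′ UTR and unc-119(+). The mapped protein was therefore a tagged copy under a promoter known for germline expression, and reads from all tissues were combined. The labels describe ChIP against the GFP fusion, and their antibody field gives dpl-1.

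Filtering by IDR, the irreproducible discovery rate, keeps peaks whose order by strength repeats between call sets. The optimal list it left held 1546 peaks with signals of 23.7 to 738. These were the 1546 strongest peaks of the pooled input list of 30000 peaks and background, whose signals started at 4.33. Each replicate had its own input list of 30000. Signal is the authors' peak caller's value against a control, and the replicate lists were on different scales (up to 211 in replicate 1 and 571 in replicate 2), so ranks by signal within a list are given beside it. The lists hold no read counts, so the depth is unknown. With 1 group of 2 samples no test over samples was possible, and counts of histone genes are given beside the same counts over all protein-coding genes.

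By copy and position, 61 core genes lay in 11 clusters of at least 3 core genes with neighbouring starts no more than 10 kb apart, and 5 core genes lay outside them. There were 6 variant genes (his-69, his-70, his-71, his-72 and his-74 of the H3 family, and htz-1, which encodes H2A.Z) and 9 linker genes (his-24 and hil-1 to hil-8). These classes were set by symbol and position, and not every member had the traits described above. The variants his-69 and his-70 have a single-exon transcript, while the clustered genes his-35, his-41 and his-37 have introns. All 16 H4 genes encode 1 identical protein, 15 of 16 core H3 genes encode the same protein, and 15 of 17 core H2A genes do. In these counts 1 protein per gene was compared. For his-57, not among the 15, it was a form of 147 residues, although the gene also has a single-exon transcript. The 17 H2B genes encode 5 proteins. Protein identity is given as matched residues over the length of the shorter protein. The product of htz-1 (140 residues) had 58.3% identity with core H2A (127 residues), and that of his-72 had 93.4% with core H3. Among the linker genes, identity to HIS-24 was as low as 24.5%, at hil-8.

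An optimal IDR summit fell from 1000 bp upstream to 500 bp downstream of a transcript start in 5 of 81 histone genes (6.17%), against 9.22% of all protein-coding genes. The genes were htz-1, the linker gene hil-4, the clustered H4 gene his-37 and the divergent H4 and H2A pair his-67 and his-68, which share 1 peak. By class the count was 1 of 61 core genes in clusters (1.64%), 2 of 5 core genes outside clusters, 1 of 6 variants and 1 of 9 linker genes. No H2B gene and no gene of the H3 family had such a summit. These are few genes on 4 peaks, and the shares of the small classes rest on 1 or 2 genes each.

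**Figure D1:**
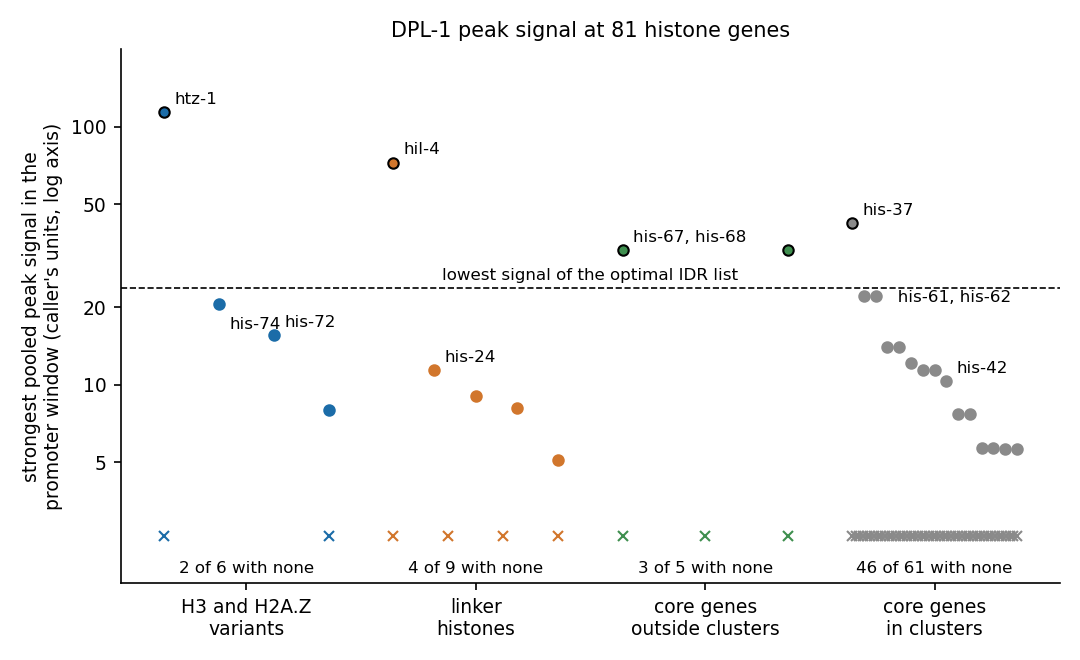
Each point is 1 of the 81 histone genes, placed by the signal of the strongest pooled input peak in its promoter window (the authors' caller's units, log axis). Crosses are genes with no pooled summit there, and black outlines mark signals of the optimal IDR list, which starts at 23.7 (dashed line). The variant gene htz-1 (114) and the linker gene hil-4 (72.7) stand above every core gene, and 46 of 61 clustered core genes have no summit.

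The 3 summits on chromosomes IV and V with a word of the E2F type, the core of the sequence that E2F and DP dimers are known to bind, are shown by the DNA around that word. The words searched on either strand were TTCCCGC with a central C and C, TTCGCGC with a central C and G, TTGCCGC with a central G and C, and also the word TTGGCGC. The strand given is that on which each line reads 5′ to 3′, capitals mark the words, and the bases are RefSeq's WBcel235 sequence, which is the ce11 assembly of the peak lists.
htz-1, chrIV:4445807-4445835, plus strand, word centred 97 bp from the summit: gaaaataccggTTCGCGCgcttaaaaatt
hil-4, chrV:4754221-4754249, plus strand, nearer word 5 bp from the summit: tTTCGCGCcatttcgcattcgGCGCCAAa
his-37, chrV:9546919-9546947, plus strand, word 61 bp from the summit: ctgcacaacctTTCCCGCgtcatcgaatc
Of the 3, hil-4 had words on both strands beside its summit, TTCGCGC reading forward and TTGGCGC as its reverse complement, and the other summits had 1 word each. The word of htz-1 lay outside the called peak interval. Such a word stood within 100 bp of 36.7% of all 1546 optimal IDR summits, so its presence at 3 of 4 histone summits is a description of few sites.

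The strongest histone peak was that of htz-1, whose product H2A.Z replaces H2A in nucleosomes around many starts. The peak covered chrIV:4445832-4445980, outside the gene itself, with its summit 298 bp upstream of the htz-1 start. Its pooled signal was 114, rank 172 of 30000. It had signal 44.5 and rank 92 in replicate 1, and signal 71.6 and rank 222 in replicate 2, with replicate summits 28 bp apart. Both replicates placed it well inside the range of the optimal list. The summit was nearer to wapl-1, which encodes a cohesin release factor and starts on the other side at 178 bp, so the peak cannot be given to htz-1 alone.

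The other 5 variant genes, of the H3 family, had weaker summits or none in the window. The products of his-69 and his-70 share 86.6% and 80.6% of their residues with HIS-72, less than core H3 does. At his-74, whose product shares 94.1% of its residues with HIS-72, the pooled summit lay 527 bp upstream with signal 20.6, rank 1851. Its matched replicate summits ranked 2279 in replicate 1 and 1774 in replicate 2, 44 bp apart. By pooled rank this peak lay just below the optimal list. The strongest replicate 1 summit in the window was another, of rank 1323, 360 bp upstream and 167 bp from the replicate 2 summit. At his-72, an H3.3 gene, the strongest pooled summit lay 198 bp upstream with signal 15.6 and rank 2606, and a summit of rank 2670 lay 388 bp upstream of an alternative start. That summit was in both replicates, at ranks 7023 in replicate 1 and 5641 in replicate 2. Of the remaining H3-family variants, his-70 had a pooled summit of signal 7.98 and rank 9754. At his-69 and his-71, the other H3.3 gene with 99.3% identity to HIS-72, the window held no pooled summit and a replicate 1 summit of rank 17446 and 27637.

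Among the variants, his-72 also had an E2F-type word in its proximal promoter, 58 bp upstream of the start, shown because its weak summit lay in the same stretch.
his-72, chrIII:12369094-12369122, minus strand: cttcttactcgTTCCCGCcccgccccgac
This was the only variant gene with such a word from 250 bp upstream to 50 bp downstream of its start. A gene with the word could therefore lack a peak of the optimal list.

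Of the 9 linker genes, only hil-4 had an optimal IDR summit in its window. The peak covered chrV:4754105-4754394 and overlapped the start, with its summit 63 bp upstream, and no other gene's window held it. Its pooled signal was 72.7, rank 385. It had signal 20.9 and rank 458 in replicate 1, and signal 50.1 and rank 383 in replicate 2, 20 bp apart. The ranks of hil-4 were thus close in both replicates. The protein of hil-4 has 253 residues. Its identity was 62.0% over the shorter HIS-24 (208 residues), the H1.1 linker histone, and 65.3% over that of hil-5 (225 residues).

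The other linker genes lay far lower in the lists. The window of his-24 held a pooled summit 255 bp downstream of the start with signal 11.4 and rank 4426, found in replicate 1 at rank 15447 and in replicate 2 at rank 7308, 6 bp apart. Pooled summits at hil-5 (rank 7289), hil-7 (rank 9419) and hil-8 (rank 23545) were not matched within 100 bp in both replicates. The replicates differed at hil-8, whose window held a summit of rank 2623 in replicate 1 and of rank 27970 in replicate 2. The window of hil-2 held a summit in replicate 2 only, at rank 13787. At hil-1, hil-3 and hil-6 no list held a summit in the window, although 96.7% or more of the 50-base words of each of these windows occur once in the genome.

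Within the window from 1000 bp upstream to 500 bp downstream, his-37 had the strongest peak of the core genes. It encodes an H4 protein with 100% identity to that of his-1. The peak covered chrV:9546849-9547138, with its summit 111 bp upstream of the start and 42.4 of pooled signal, rank 766. It had signal 17.4 and rank 599 in replicate 1, and signal 27.3 and rank 828 in replicate 2, with summits 77 bp apart. The gene belongs to a run of 3 with his-35 (H2A) and his-41 (H2B) that differs from the other clusters: all 3 genes have 2 exons and an annotated 3′ UTR of 88 to 109 bp. The other 58 clustered genes have a single-exon transcript. Of those 58, 0 had an optimal IDR summit in the window, against 9.22% of all protein-coding genes. In 47 of the 58, fewer than 75% of the window's 50-base words occur once in the genome. Of all protein-coding genes with such windows, 2.29% had an optimal IDR summit. The remaining 11 had windows of at least 75%, where the share of all protein-coding genes was 9.60%. With so few genes, the count cannot tie the summit to exon structure. At his-35 and his-41 the same window held no optimal IDR summit and 2 pooled summits, of signal 11.4 (rank 4458) and 6.88.

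The pair his-67 (H4) and his-68 (H2A) on chromosome I, read away from each other, was the other core locus in the optimal list. Its peak, chrI:9988818-9989107, lay between the starts, with the summit 200 bp upstream of his-67 and 169 bp upstream of his-68. The pooled signal was 33.3, rank 1022. It had signal 16.6 and rank 642 in replicate 1, and signal 26.9 and rank 844 in replicate 2, but the replicate summits were 156 bp apart. The pair was therefore not counted among genes with summits in both replicates within 100 bp. The summit also fell in the window of alg-5, which encodes an Argonaute, 839 bp upstream of it. The other core genes outside clusters, his-73, his-38 and his-40, had no summit in any list in the window. HIS-73 is annotated with 46 residues.

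Across exon structure, 3 of 15 histone genes with an intron in every transcript had an optimal IDR summit in the window, against 2 of 66 with a single-exon transcript, where all protein-coding genes stood at 9.22%. A pooled summit was present in 10 of 15, against 16 of 66, beside 50.4% of all genes. Summits of both replicates were present in 6 of 15, against 3 of 66, beside 16.4% of all genes. Windows in which at least 75% of the 50-base words occur once in the genome were found in 19 of the 66 single-exon genes. All 15 genes with an intron in every transcript had such windows. Counts of the 19 were 2 (10.5%) for the optimal list, 8 (42.1%) for the pooled list and 2 (10.5%) for both replicates. All protein-coding genes with such windows stood at 9.60%, 52.2% and 17.1%. Exon structure ran together with class and with how often the promoter sequence recurs in the genome, and these cannot be told apart with so few genes.

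A summit of the pooled input list was in the window of 26 of 81 histone genes (32.1%), against 50.4% of all protein-coding genes. It was in 15 of 61 core genes in clusters, 2 of 5 outside clusters, 4 of 6 variants and 5 of 9 linker genes. Summits of both replicates no more than 100 bp apart were in the windows of 9 histone genes (11.1%), against 16.4% of all protein-coding genes. These were htz-1, his-72, his-74, hil-4, his-24, his-37, his-42, his-61 and his-62. By class they were 4 of 61 core genes in clusters, 0 of 5 outside clusters, 3 of 6 variants and 2 of 9 linker genes. Where a pooled summit was present, the median best rank was 4442 in the 26 histone genes and 8862 in 10063 of all genes.

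**Figure D2:**
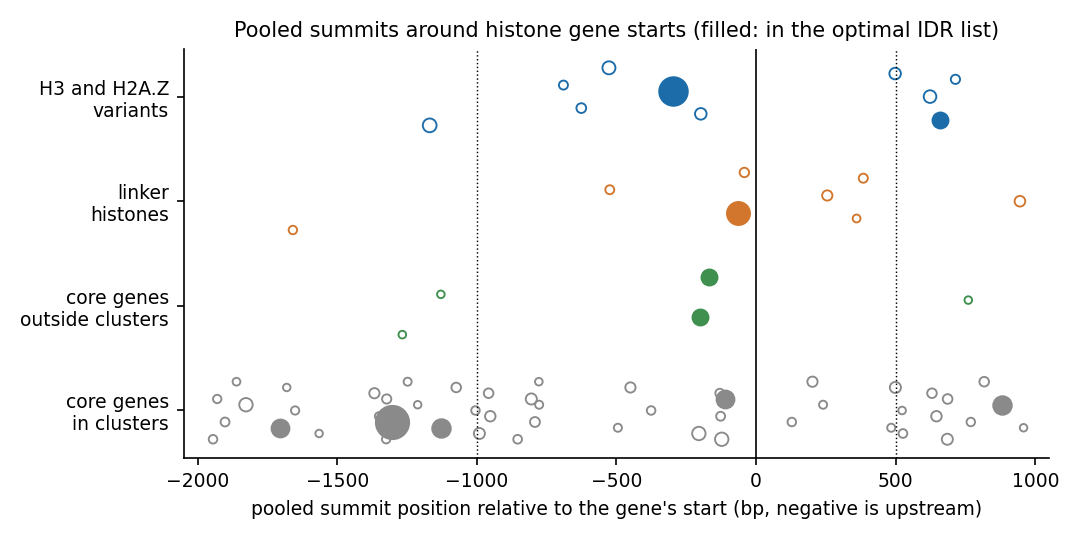
Each circle is a pooled summit near a histone gene, placed by its distance from the gene's first start (bp, negative upstream) in rows by class, with area growing with signal. Filled circles are in the optimal IDR list, and dotted lines mark the window from 1000 bp upstream to 500 bp downstream. Inside the window the filled circles lie upstream, between 298 and 63 bp before the start, and the large filled circle of the clustered genes lies outside it.

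Of the peaks in promoter windows of clustered genes, the best outside the his-37 run was that between his-61 (H2A) and his-62 (H2B) on chromosome IV. Its summit lay 205 bp upstream of his-61 and 123 bp upstream of his-62, with pooled signal 22.1 and rank 1673. It had signal 9.69 and rank 1602 in replicate 1, and signal 14.3 and rank 1764 in replicate 2, 49 bp apart. The summit thus missed the optimal list by signal (22.1, against the lowest value of 23.7) while being close in both replicates. In the same cluster, the summit between his-60 (H4) and his-59 (H3) had pooled signal 7.67 and rank 10732.

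The best core H3 gene was his-42, at the end of the 13-gene cluster on chromosome II, with a pooled summit 792 bp upstream, signal 10.3 and rank 5500. Its matched replicate summits ranked 15187 in replicate 1 and 9215 in replicate 2. The windows of his-66 (H2B) and his-65 (H2A) shared a pooled summit of signal 14.0 and rank 3051. Replicate 2 held it at rank 2315, and replicate 1 held no summit in either window. At his-48 (H2B) the pooled summit, of signal 12.1 and rank 3928, lay 952 bp upstream and was likewise in replicate 2 only.

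**Figure D3:**
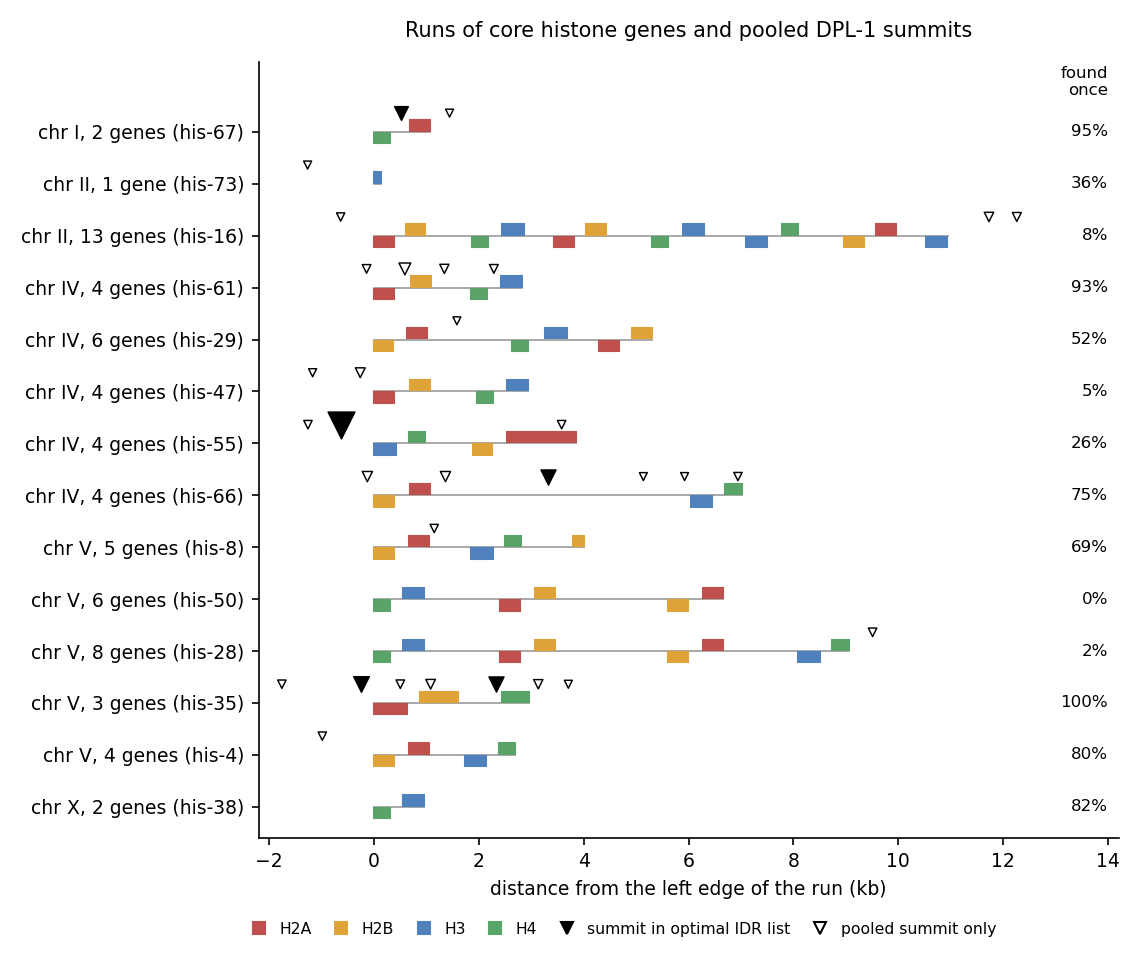
The 11 clusters and the 3 shorter runs of core genes are drawn from their left edge (kb), with genes of the plus strand above the line and of the minus strand below it, coloured by histone type. Triangles are pooled DPL-1 summits within 2 kb of the run, filled where they belong to the optimal IDR list, with area growing with signal. The percentage at the right is the share of 50-base words of the run found once in the genome. Runs on chromosome V with 0% and 2% hold no triangle inside them. Neither do those of his-47 (5%), his-16 (8%), his-73 (36%), his-4 (80%) and his-38 (82%). The run of his-35, his-41 and his-37 (100%) holds 3, and that of his-55 (26%) holds 1.

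The clusters spanned 58220 bp and held 14 pooled summits, 2.40 per 10 kb against 2.99 per 10 kb of the genome. Pooled summits lay inside 6 of 11 clusters and optimal IDR summits inside 2. The first was the his-37 peak. The second, of signal 42.3 and rank 769, lay in the gap of the chromosome IV cluster of his-66, his-65, his-63 and his-64, 2952 bp from the his-66 start and 223 bp upstream of cyp-31A2, which encodes a cytochrome P450. In 4 clusters no input list held a summit. The clusters of 6 and 8 genes on chromosome V (his-50 to his-53 and his-28 to his-18) lay 240900 and 276873 bp from the nearest optimal IDR summit.

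Of the 66 core genes, 62 stand head to head and share their upstream DNA. They formed 31 pairs, 16 of H2A with H2B, 14 of H3 with H4 and the pair his-67 and his-68, with starts 227 to 368 bp apart (median 258). A pooled summit lay between the starts in 3 pairs, those of his-67, his-61 and his-60. An optimal IDR summit lay there in 1 pair, his-67 and his-68. Both replicates had a summit between the starts in 2 pairs, those of his-67 and his-61. The same count over other divergent gene pairs was not made. The gaps between starts are shorter than the promoter window, so these counts cannot be set beside the shares of all genes given elsewhere.

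Upstream DNA of many clustered genes recurs in the genome. The bases from 59 to 30 before the start are shown for genes of different clusters, to let the copies be seen beside sequences found once.
his-13, chrII:13820151-13820180, plus strand: aagaaacgataaggtctcccttttcttcac
his-9, chrII:13823589-13823618, plus strand: aagaaacgataaggtctcccttttcttcac
his-25, chrII:13825289-13825318, minus strand: aagaaacgataaggtctcccttttcttcac
his-49, chrV:8847884-8847913, plus strand: tgtataaatgcagtgtacatgtctccttta
his-27, chrV:8889979-8890008, plus strand: tgtataaatgcagtgtacatgtctccttta
his-61, chrIV:7486247-7486276, minus strand: ataaacagacagtttcggttcattcttcag
his-59, chrIV:7488190-7488219, plus strand: aaggcagccgttagtttcacttttctcaca
The runs of his-13, his-9 and his-25 (all H3) are the same, as are those of his-49 and his-27, and each occurs 3 times in the genome. Those of his-61 and his-59 occur once, and both of these genes had a pooled summit, whereas the 5 genes with copied sequence had none. The genes his-61 and his-59 belong to the same cluster, and other genes did not all follow these examples. At his-31, his-32, his-1 and his-2 the 30 bases were also shared with no other core gene. Their windows held no pooled summit. Over all 66 core genes these 30 bases took 42 different sequences, and 37 genes shared theirs with at least 1 other. A pooled summit was in the window of 4 of these 37, his-48, his-64, his-65 and his-66. It was in that of 13 of the 29 core genes that shared theirs with no other. The share over all protein-coding genes was 50.4%.

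Measured over the promoter window, a median of 15.9% of the 50-base words of clustered core genes occur once in the genome, against 100% in all protein-coding genes. In variant and linker genes the median was also 100%. In 17 clustered genes the share was 0 at word lengths of 36, 50 and 100 bases. A peak between identical copies cannot be placed by reads that match all of them, and whether the authors' calls used such reads is not given in the sources used here.

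The counts were also taken by how unique the window is. Where at least 75% of 50-base words occur once, an optimal IDR summit was in the window of 5 of 34 histone genes (14.7%), against 9.60% of 18939 protein-coding genes. A pooled summit was in 18 of 34 (52.9%), against 52.2%, and summits of both replicates were in 8 of 34 (23.5%), against 17.1%. Below 75%, the counts were 0 of 47 histone genes for the optimal list, against 2.29% of 1046 protein-coding genes, and 8 of 47 (17.0%) for the pooled list, against 16.9%. Those shares are not like for like, since 38 of the 47 histone genes lay below 25%. There, 0 of 290 protein-coding genes had an optimal IDR summit. A pooled summit was there in 3 of the 38 histone genes (7.89%), against 2.41% of the 290. Among clustered core genes alone, 14 had windows of at least 75%, of which 1 had an optimal IDR summit (his-37), 7 a pooled summit and 3 summits of both replicates. Without his-35, his-41 and his-37, the clustered genes with such windows were 11 single-exon genes, of which 0 had an optimal IDR summit, against 9.60% of all such genes, and 4 (36.4%) a pooled summit, against 52.2%. The 4 were his-61, his-62, his-60 and his-59 of 1 cluster, and each divergent pair shared its strongest summit. They are therefore not separate sites. The part of repeated sequence in the low count of clustered genes was not tested beyond these counts, and the 75% limit was chosen with the data in view.

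**Figure D4:**
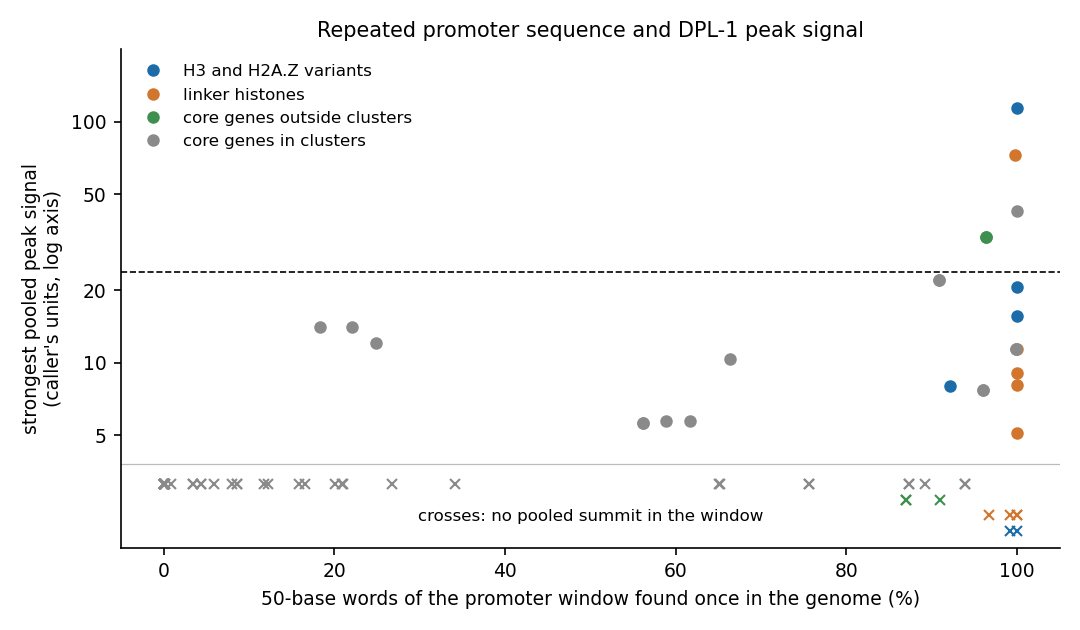
The share of 50-base words of the promoter window found once in the genome (%, horizontal) is plotted against the strongest pooled peak signal (authors' caller's units, log axis) for the 81 histone genes, coloured by class. The dashed line is the lowest signal of the optimal IDR list, 23.7, and crosses are genes with no pooled summit, in rows by class. Every gene above the dashed line has a share of at least 96.3%, and crosses occur over the whole range.

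The E2F-type word was also present where no optimal peak was found. It occurred from 250 bp upstream to 50 bp downstream of the start in 9 of 81 histone genes (11.1%), against 9.20% of all protein-coding genes. They were hil-4, his-37, his-72 and 6 genes in 3 clusters of chromosome IV (his-47, his-48, his-57, his-58, his-65 and his-66). In these 6 the word sits in the same sequence between divergent H2A and H2B genes, shown here to make the copies plain.
his-47 and his-48, chrIV:11324644-11324672, minus strand: aggggcggagcTTCCCGCggggacacatt
his-58 and his-57, chrIV:11340179-11340207, plus strand: aggggcggagcTTCCCGCggggacacatt
his-66 and his-65, chrIV:11400859-11400887, plus strand: aggggcggagcTTCCCGCggggacacatt
The 29 bases occur 3 times in the genome, once in each cluster, 87 bp before the H2B starts. No list held a summit between the starts of these pairs, where the sequence is repeated. Words of the CHR type, TTTGAA and TTCGAA, which the DREAM complex is known to contact, occurred in the same stretch of 17 of 81 histone genes (21.0%), against 68.9% of all genes. By class they were in 7 of 61 core genes in clusters (11.5%), 2 of 5 outside clusters, 5 of 6 variants (83.3%) and 3 of 9 linker genes. These words are rich in A and T, and the GC content of the stretch had a median of 48.0% in histone genes, against 34.3% in all genes.

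In a wider window, from 2000 bp upstream to 1000 bp downstream, 10 of 81 histone genes (12.3%) had an optimal IDR summit, against 11.5% of all protein-coding genes. The genes added were his-35, his-41, his-56, his-69 and his-72. Each added peak had a nearer start of another gene. That of his-56 (H4) was the strongest, with signal 156, rank 85 in the pooled list, 89 in replicate 1 and 92 in replicate 2, but it lay 1304 bp upstream and only 34 bp upstream of F54E12.2. The peak of his-35 and his-41 (signal 45.9, rank 684) lay 181 bp upstream of mdf-1, a spindle checkpoint gene. That of his-69 (signal 33.2, rank 1026) lay 107 bp upstream of rcq-5, a RecQ-type helicase gene. That of his-72 (signal 30.2, rank 1155) lay 204 bp downstream of a start of Y75B8A.33. Counting each summit only for its nearest start left 3 histone genes (3.70%), hil-4, his-37 and his-68, against 6.37% of all protein-coding genes.

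By chromosome, the counts of histone genes were small throughout. Of 5 histone genes on X, 0 had an optimal IDR summit and 1, his-24, had a pooled summit, against 1.14% and 43.0% of 2731 genes of X. On chromosome V, 2 of 30 histone genes had an optimal IDR summit, against 5.67% of its genes, and on chromosome IV 1 of 25 did, against 9.63%. On chromosome II 0 of 14 did, against 9.83%, and on chromosome III 0 of 3, against 16.1%. On chromosome I 2 of 4 did, the pair his-67 and his-68 with its single peak, against 15.1%.

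Genes that supply or place histones were taken as a list from textbook knowledge, with earlier results of these data known. Of 14 listed names 13 were annotated, and 8 of 13 (61.5%) had an optimal IDR summit in the window, against 9.22% of all genes. The strongest was at nasp-2, of a family of H3-H4 chaperones, with signal 270 and rank 11, at rank 7 in replicate 1 and 19 in replicate 2. At hcp-3, which encodes the centromeric H3 variant CENP-A and carries neither symbol prefix, the signal was 242 and the rank 19, with ranks 11 in replicate 1 and 29 in replicate 2. At lin-53, which encodes a histone-binding subunit of DREAM and of chaperone complexes, it was 195 and 43, with ranks 49 in replicate 1 and 54 in replicate 2. At cdl-1, which encodes the protein that binds the stem-loop of core histone transcripts, it was 81.5 and 319, with ranks 302 in replicate 1 and 335 in replicate 2. The 5 without an optimal IDR summit were chaf-1, hira-1, asfl-1, xnp-1 and rba-1, whose best pooled summits ranked from 1562 to 4137. All 13 had a pooled summit in the window, against 50.4% of all protein-coding genes.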

How the data were processed

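DPL-1 ChIP-seq peaks of 2 samples of 1 group were analysed. Each peak's signal is the authors' peak caller's value in the deposited lists. The description files deposited by the authors say that the replicate lists came from each replicate's alignment and a control, the pooled list from both, and the optimal list from IDR. Aligner, caller and versions were not given in the sources used here. Only the 4 lists on ce11 were used; lists on ce10, reads and control were not analysed here. Replicates were compared as ranks and as summits within 100 bp.

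Starts came from Ensembl 115 (29796 starts), and symbols from RefSeq at the same coordinates (81 of 81 members matched; 36 share an Ensembl symbol). Words of 36, 50 and 100 bases were counted over both strands of the WBcel235 genome. Python 3.11.15, NumPy 2.4.6, Biopython 1.88 (protein identity) and Matplotlib 3.10.9 were used, and the counting was checked on simulated data.

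Members and lists were chosen with earlier results of these data known. Named genes were those with an optimal summit in any window, the 10 best pooled ranks, every variant and linker gene, the best of each core type and up to 4 supply genes. Genes named beside a shared peak, for a repeated sequence, or to complete a count were added after their values were seen. Alternatives were other windows, first or nearest start, peak interval, fewer peaks, single replicates, other cluster gaps and uniqueness.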

Additional observations from a re-analysis of the deposited data

How the results depend on the processing

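Of 59 alternative counts, 45 stayed within 1.5 times the reported count. In the wider window 10 histone genes (12.3%) had an optimal IDR summit, against 11.5% of all genes. They included 4 clustered core genes and 3 variants. Summits of both replicates were there in 14 histone genes (17.3%), against 22.0% of all genes. The narrower window left 15 histone genes (18.5%) with a pooled summit, against 36.7% of all genes. By nearest start only, counts with an optimal IDR summit were 3 histone genes (3.70%), 1 core gene outside clusters and 0 variants. All genes stood at 6.37% there. In the strongest 773 peaks of the optimal list the counts were 3 histone genes (3.70%) and 0 core genes outside clusters. All genes stood at 5.12% there. Counting the peak interval gave 2 clustered core genes (3.28%), against 9.53% of all genes. Allowing 250 bp between replicate summits gave 14 histone genes (17.3%), against 22.3% of all genes. Ranking by 1 replicate alone, without replicate 1 or without replicate 2, gave 5 to 6 histone genes, against 8.82% to 8.89% of all genes. By class these were 1 to 1 clustered core genes, 2 to 2 core genes outside clusters and 1 to 1 linker genes. Variants were 1 to 2 (his-74 added by replicate 1 alone). In the full input list of 1 replicate, 27 to 28 histone genes had a summit, against 49.3% to 50.4% of all genes. Without the run of genes with introns, 0 of 58 clustered core genes had an optimal IDR summit, against 9.22% of all genes. That alternative was chosen after seeing the data, like the uniqueness limit.

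No paired analysis was possible because there was 1 group. Read depth is unknown, so signals carry no counting error, and a missing summit does not show absence of DPL-1.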
